A study of Homo sapiens with 6 samples.

Results

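The mRNA decay machinery is described here as 48 genes of the CCR4-NOT and PAN2-PAN3 deadenylases, decapping, 5′-to-3′ and 3′-to-5′ degradation, nonsense-mediated decay and the adaptors that bring mRNAs to them. The members were the rows of the read count table whose Ensembl identifiers mapped to these symbols, 48 of 61661 identifiers. RNA-seq was performed on K562 cells, an established chronic myeloid leukemia line, in 3 groups (shCTR, shMETTL3, shMETTL14) of 2 libraries. In the labels, shCTR cells had the WT genotype and the others a METTL3 or a METTL14 knockdown. The control virus carried a nonsense shRNA and the METTL3 virus a METTL3 shRNA, both under a U6 promoter with GFP and a puromycin marker, in stable lines. Construction of the METTL14 line was not given in the sources used here, and it was not stated whether replicates were separate cultures, so p-values measured only the spread between these libraries, which may be technical.

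METTL3 and METTL14 form the core of the enzyme that writes N6-methyladenosine (m6A) on mRNA. Reader proteins such as YTHDF2 bind methylated mRNA and recruit the CCR4-NOT complex through CNOT1, which shortens the poly(A) tail, or recruit RNase P/MRP through HRSP12, which leads to cleavage inside the mRNA. Once the tail is short, the cap is removed by DCP2 and the body is degraded by XRN1 from the 5′ end or by the RNA exosome from the 3′ end. BTG1, BTG2 and TOB1 tie the CCR4-NOT deadenylases to their targets, and the ZFP36 proteins bring mRNAs with AU-rich elements to the same complex.

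The shRNA targets were lower in their own lines. Reads of METTL3 were 1788 and 1728 in the control libraries and 1031 and 938 in shMETTL3 libraries, a log2 fold change of -0.87 (SE 0.0783, adjusted p = 3.44e-07 by edgeR). Reads of METTL14 were 656 and 655 in the control libraries and 375 and 404 in shMETTL14 libraries, a log2 fold change of -0.76 (SE 0.0886, adjusted p = 1.40e-05). Library totals ran from 19292574 to 20115304 reads. The shCTR libraries stood further apart than those of the other groups, with a chi-square per gene that averaged 5.34 against 3.05 in shMETTL3 and 2.55 in shMETTL14. Of 10 erythroid markers of K562 cells, edgeR had 3 higher and 2 lower in shMETTL3, where log2 fold changes ran from -1.01 to 0.96. In shMETTL14, 3 were higher and 1 lower, with log2 fold changes from -0.54 to 0.41. DESeq2 called 3 higher and 1 lower in shMETTL3, and 3 higher and 0 lower in shMETTL14. Of all genes, edgeR called 16.5% in shMETTL3 and 6.69% in shMETTL14. GATA1, TAL1 and KLF1 had 2414 or more reads in every library. Of 10 monocytic and myeloid markers, MPO, CD14, FLT3, CSF1R and HOXA9 stayed at 3 or fewer reads, and the summed level of the list was 82.3 to 91.6 CPM, reads scaled to library size, in shCTR, 52.6 to 54.0 in shMETTL3 and 111 to 120 in shMETTL14. Of 5 lymphoid markers, 2 were tested and CD3D was called higher in shMETTL3 by edgeR but not by DESeq2, and the summed level was 5.87 to 6.27 CPM in shCTR, 8.81 to 9.47 in shMETTL3 and 6.46 to 7.14 in shMETTL14.

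All 48 members passed the filter on low counts. Their mean over the libraries ran from 146 reads for DCP1B to 6958 for CNOT1, and 42 members had at least 500. Fold changes were tested with the quasi-likelihood test of edgeR, with Benjamini-Hochberg adjustment over 17686 genes, and a gene was called at an adjusted p under 0.05. Levels are in CPM scaled by edgeR's TMM factors, as mean ± SD with n = 2. In shMETTL3 against shCTR, 7 members were lower, or 14.6% of 48, and 0 were higher, beside 7.73% lower and 8.73% higher among all genes tested. At an unadjusted p under 0.05, edgeR had 14 members lower and 0 higher, beside 14.2% lower and 15.8% higher (29.9% in all) of all genes tested. DESeq2 called 6 members lower and 0 higher. Shares of all genes given in this text are edgeR's, and counts by DESeq2 have no such share beside them. In shMETTL14 against shCTR, 4 were lower (8.33%) and 1 was higher (2.08%), beside 3.26% lower and 3.43% higher among all genes. Between the knockdowns, 6 members were lower and 1 was higher in shMETTL3 than in shMETTL14, or 12.5% and 2.08%, beside 5.49% and 6.65% among all genes. The median log2 fold change over the members was -0.06 in both knockdowns, against 0.00 over all genes. Values were below 0 for 36 members in shMETTL3 and 31 in shMETTL14, beside 8756 and 8848 of the 17686 genes tested. The knockdowns share the shCTR libraries, and of the 10 members called in either one against shCTR, PATL1 and ZFP36L1 were called in both, lower each time. Of all genes tested, 16.5% were called in shMETTL3 and 6.69% in shMETTL14. The share of all genes called in both is not given here, so the overlap is not read as a trait of the members.

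**Figure D1:**
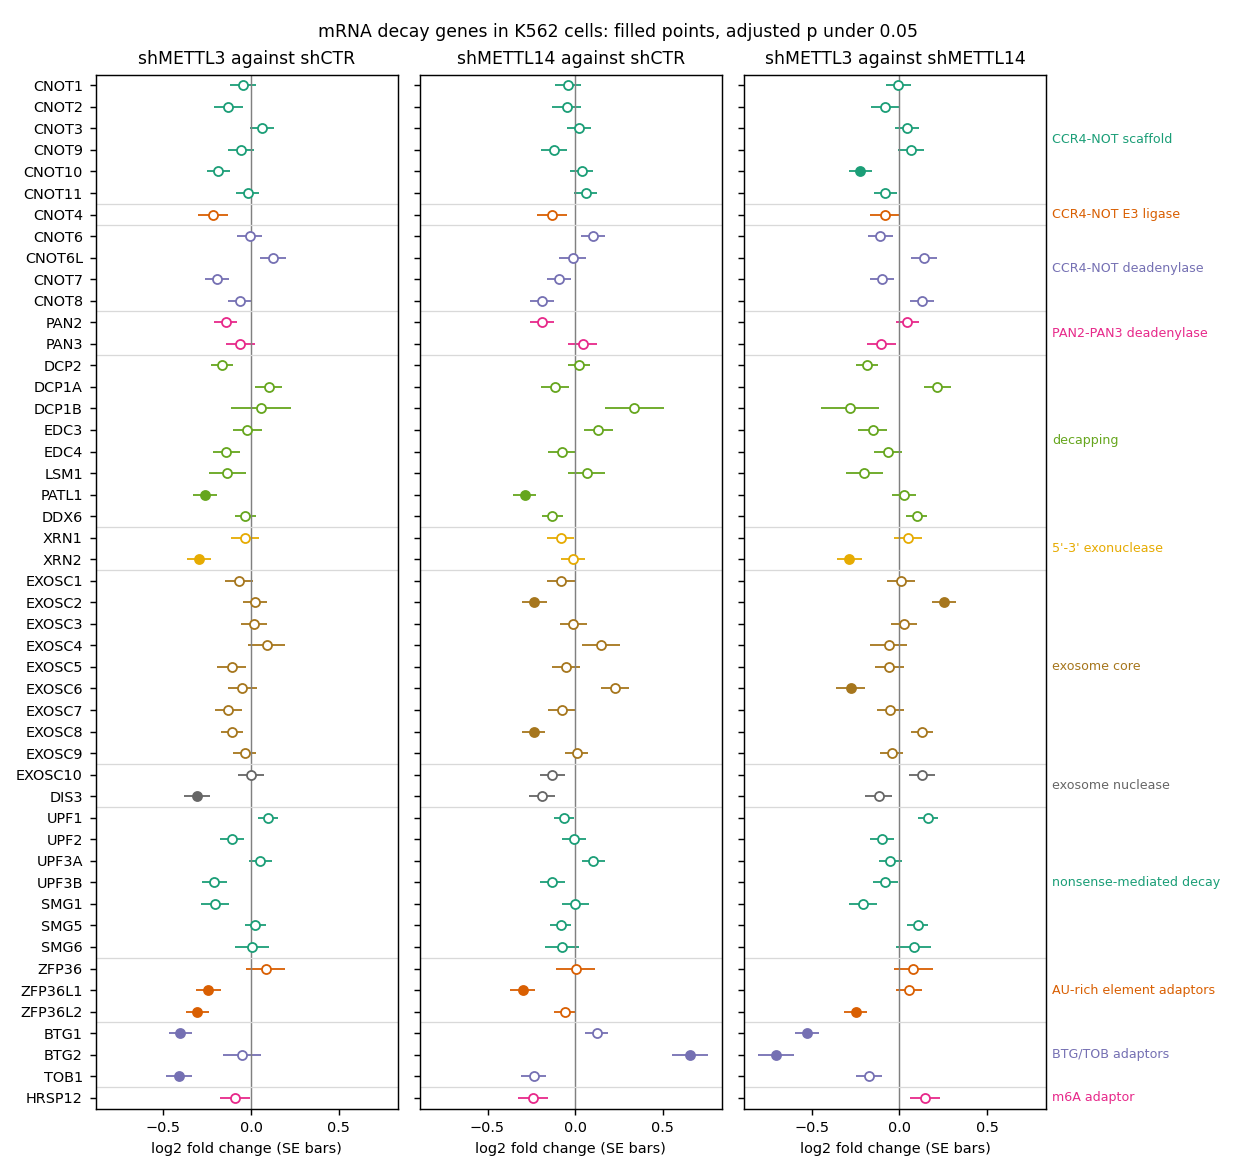
Log2 fold change of each of the 48 decay genes, with SE bars, in the 3 comparisons, with genes on the vertical axis grouped by role and filled points for an adjusted p under 0.05. The BTG/TOB and AU-rich element adaptors hold 4 of the 7 calls in shMETTL3 against shCTR, and the CCR4-NOT and nonsense-mediated decay genes hold none there. Of all genes tested, 16.5% were called in that comparison.

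The preferred sequence of the METTL3-METTL14 enzyme includes GGACU, with the methyl group on the A, and the mark is dense near stop codons. m6A was not measured in these libraries. The motif, searched as GGACT in the sense strand of 1 GENCODE release 29 coding transcript per gene, occurred within 150 bases either side of the stop codon in 12 of the 41 members with a full 300-base window (29.3%), and in 30.9% of 11379 windows of all genes tested. Its median density over the whole transcript was 0.900 per kb in the members and 0.938 per kb in all genes. The sequences below are the 25 bases around the occurrence nearest the stop codon in BTG1, BTG2, TOB1, ZFP36L1 and PATL1, on GRCh38, 5′ to 3′ in the mRNA sense and as DNA letters, with the motif in capitals. They are shown because these genes carried the largest or the shared differences. The BTG1 occurrence is in the coding sequence in exon 2 of 2, chr12:92144320-92144344 on the minus strand. The BTG2 occurrence is in the coding sequence in exon 2 of 2, chr1:203307207-203307231 on the plus strand. The TOB1 occurrence is in the 3′ UTR in exon 2 of 2, chr17:50862260-50862284 on the minus strand. The ZFP36L1 occurrence is in the 3′ UTR in exon 2 of 2, chr14:68788745-68788769 on the minus strand. The PATL1 occurrence is in the coding sequence in exon 14 of 19, chr11:59649570-59649594 on the minus strand.
BTG1: acagcggattGGACTgagcagtcag
BTG2: cagccagatcGGACTcagccagccc
TOB1: atgttaagagGGACTgaaatagttt
ZFP36L1: gacttaagtgGGACTttgtgattta
PATL1: ttgatgtggaGGACTatgaaagacg
Counted from the last base of the stop codon to the A of the motif, these occurrences lay at -252, -219, 708, 776 and -700 bases, so none of the 5 was inside the window. Among the other called members, ZFP36L2, EXOSC2, EXOSC6 and EXOSC8 had one nearer the stop codon. For 2 of these it was in the coding sequence, in ZFP36L2 at chr2:43224440-43224464 on the minus strand and in EXOSC8 at chr13:37009205-37009229 on the plus strand. For EXOSC2 it was in the 3′ UTR at chr9:130703785-130703809 on the plus strand.
ZFP36L2: ccagccccccGGACTcgctgtcgga
EXOSC8: ctaaacttcaGGACTgtatgagccg
EXOSC2: cagaagcacgGGACTgtggaccttg
The A of the motif lay at -133, -82 and 23 bases from the stop codon in these genes. A match of letters is no evidence of methylation, and which of these sites carry m6A in K562 cells was not tested.

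The BTG/TOB adaptors gave the largest changes of all members, and BTG1 and BTG2, a pair of close paralogs, differed between the lines in different ways. BTG1, an antiproliferative protein that binds the deadenylase subunits CNOT7 and CNOT8, had 2489 and 2489 reads in shCTR, 1834 and 2008 in shMETTL3, and 2626 and 2846 in shMETTL14 libraries. Both shMETTL3 libraries were below all others. The level was 128 ± 2.87 CPM in shCTR and 96.7 ± 4.74 CPM in shMETTL3, 75.6% of control (log2 fold change -0.40, SE 0.0670, adjusted p = 0.000357). In shMETTL14 it was 139 ± 8.15 CPM, a log2 fold change of 0.12 (adjusted p = 0.302). The direct comparison gave a log2 fold change of -0.53 in shMETTL3 against shMETTL14 (SE 0.0668, adjusted p = 1.77e-05). An exon of BTG1 overlaps LINC01619 on the same strand, and whether reads of the latter entered the count was not tested.

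BTG2, a p53-inducible protein of the same family, had 321 and 298 reads in shCTR, 304 and 306 in shMETTL3, and 459 and 525 in shMETTL14 libraries. It was the only member called higher than control in either line, and the shMETTL14 libraries lay above all others. The level rose from 15.9 ± 0.480 CPM in shCTR to 25.1 ± 2.42 CPM in shMETTL14, 158% of control (log2 fold change 0.66, SE 0.102, adjusted p = 0.000369). In shMETTL3 it was 15.4 ± 0.160 CPM, with a log2 fold change of -0.05 and a 95% interval from -0.26 to 0.16. The knockdowns differed by -0.71 on the log2 scale (SE 0.103, adjusted p = 8.63e-05).

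TOB1, which links CCR4-NOT to the poly(A)-binding protein, had 962 and 901 reads in shCTR, 698 and 734 in shMETTL3, and 797 and 797 in shMETTL14 libraries. The groups did not overlap, with shCTR highest and shMETTL3 lowest. The level fell from 47.9 ± 1.14 CPM to 36.1 ± 0.740 CPM in shMETTL3, 75.3% of control (log2 fold change -0.41, SE 0.0738, adjusted p = 0.000778). In shMETTL14 it was 40.6 ± 0.0661 CPM (log2 fold change -0.24, adjusted p = 0.0573), and the difference between the knockdowns was -0.17 (adjusted p = 0.156). TOB1 overlaps TOB1-AS1 on the opposite strand, and since the strand setting was not stated, their reads could not be told apart. The calls for BTG1 and TOB1 in shMETTL3, BTG2 in shMETTL14, and BTG1 and BTG2 between the knockdowns held under all 8 other settings and with each of the 6 libraries left out. LYZ, a myeloid gene, was lower in shMETTL3 (log2 fold change -1.43) and higher in shMETTL14 (0.54). Of the 5 myeloid markers tested, 3 were lower and 0 higher in shMETTL3 by edgeR and by DESeq2, beside 7.73% of all genes lower by edgeR. At an unadjusted p under 0.05, edgeR had 1 of them higher there. In shMETTL14, 2 were higher and 0 lower, beside 3.43% of all genes higher by edgeR. The part of these markers in the BTG/TOB results was not tested.

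**Figure D2:**
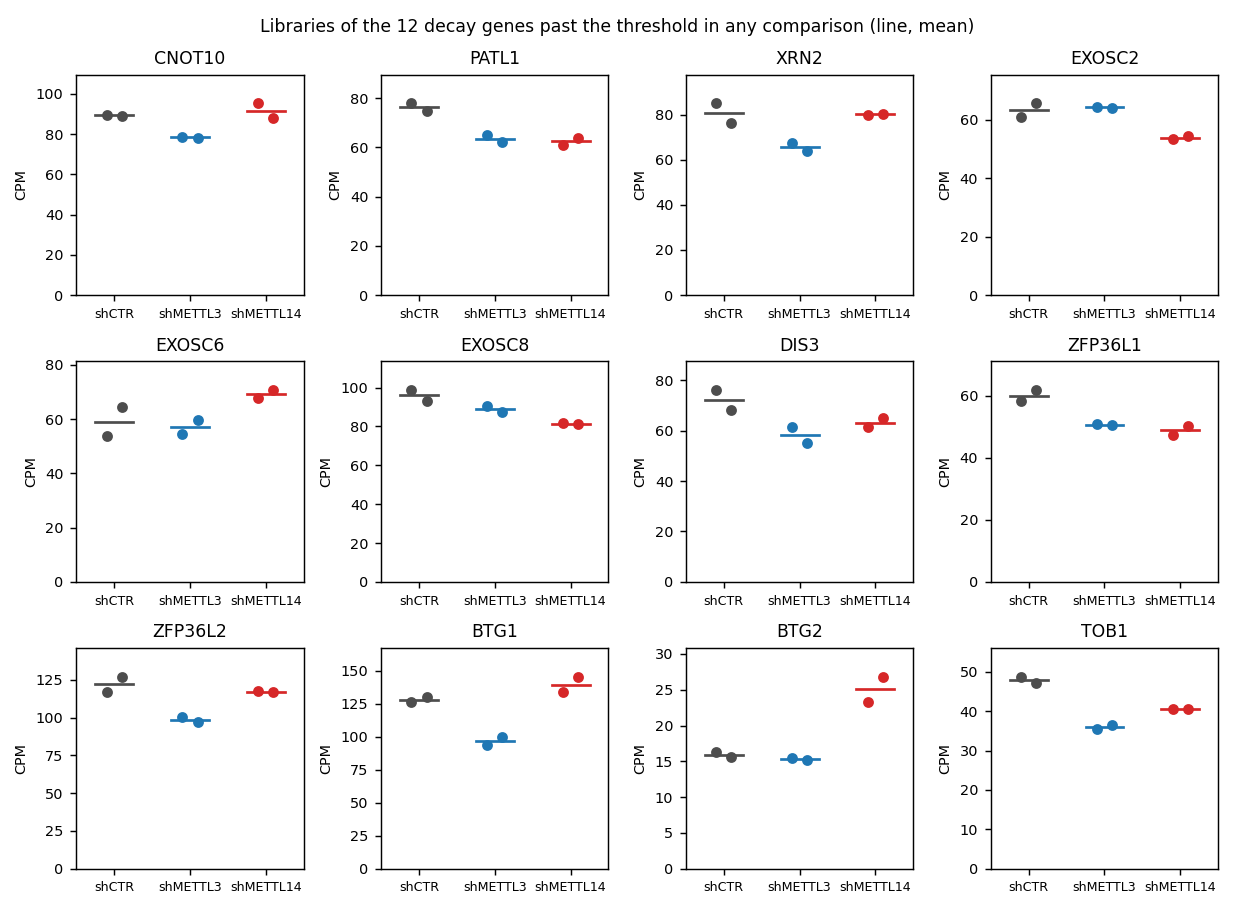
CPM in each of the 6 libraries for the 12 decay genes called in any comparison, 1 panel per gene with the CPM axis starting at 0, points for libraries and a line for the mean of each group. BTG1, TOB1, XRN2 and ZFP36L2 were lowest in both shMETTL3 libraries, and BTG2 was highest in both shMETTL14 libraries.

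Of the 3 ZFP36 proteins, which bind AU-rich elements in 3′ UTRs, ZFP36L1 and ZFP36L2 were lower and ZFP36 was not called. ZFP36L2 had 2317 and 2429 reads in shCTR, 1971 and 1949 in shMETTL3, and 2312 and 2291 in shMETTL14 libraries. Both shMETTL3 libraries were below all others. The level was 122 ± 6.81 CPM in shCTR and 98.7 ± 2.27 CPM in shMETTL3 (log2 fold change -0.31, SE 0.0649, adjusted p = 0.00291). In shMETTL14 it was 117 ± 0.566 CPM, and the difference between the knockdowns was -0.25 (SE 0.0650, adjusted p = 0.0149). ZFP36L1 was lower in both lines, with 1152 and 1182 reads in shCTR, 998 and 1014 in shMETTL3, and 928 and 987 in shMETTL14 libraries. All 4 knockdown libraries were below both shCTR libraries. The log2 fold change of ZFP36L1 was -0.24 in shMETTL3 (SE 0.0706, adjusted p = 0.0219) and -0.30 in shMETTL14 (SE 0.0709, adjusted p = 0.0135). ZFP36, the immediate early member of the family, had 312 and 368 reads in shCTR and values of 0.08 in shMETTL3 and 0.00 in shMETTL14. Of the immediate early gene list, which holds neither ZFP36 nor BTG2, 21 genes were tested. In shMETTL3, 3 were higher (14.3%) and 1 lower (4.76%), beside 8.73% and 7.73% of all genes. In shMETTL14, 0 were higher and 2 lower (9.52%), beside 3.43% and 3.26% of all genes. There edgeR had 4 higher and 6 lower at an unadjusted p under 0.05, beside 10.7% and 9.97% of all genes. DESeq2 called 3 higher and 0 lower in shMETTL3, and 0 higher and 1 lower in shMETTL14. The part of that list in these results was not tested. Without the shMETTL3-2 library, ZFP36L2 and ZFP36L1 missed the threshold in shMETTL3 at log2 fold changes of -0.28 (adjusted p = 0.0677) and -0.24 (adjusted p = 0.169). ZFP36L1 also missed it there without shMETTL3-1 (-0.25, adjusted p = 0.123) or shCTR-2 (-0.21, adjusted p = 0.0559) and with DESeq2 (-0.25, adjusted p = 0.0668) or library size alone (-0.19, adjusted p = 0.0723). The ZFP36L2 difference between the knockdowns was lost without any library of shMETTL3 or shMETTL14, at -0.27 to -0.22 and adjusted p from 0.0812 to 0.184. Without shMETTL14-1 or shMETTL14-2, ZFP36L1 missed it in shMETTL14 at -0.25 (adjusted p = 0.250) and -0.35 (adjusted p = 0.0719). The longest exact run shared by the transcripts of ZFP36L1 and ZFP36L2 was 23 bases, and that of BTG1 and BTG2 was 18.

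The CCR4-NOT complex, the main cytoplasmic deadenylase, was called in 0 of 11 members against shCTR in either knockdown by edgeR and by DESeq2. Of all genes tested, edgeR called 16.5% in shMETTL3 and 6.69% in shMETTL14. At an unadjusted p under 0.05, 3 members were lower in shMETTL3 and 1 in shMETTL14, beside 14.2% and 9.97% lower among all genes, or 29.9% and 20.7% in either direction. CNOT1, the scaffold on which the other subunits assemble and the contact of YTHDF2, had 7844 and 6222 reads in shCTR, 7032 and 6862 in shMETTL3, and 7062 and 6728 in shMETTL14 libraries. The shCTR libraries enclosed all the others. Its log2 fold change was -0.04 in both lines, with 95% intervals from -0.19 to 0.10 in shMETTL3 and from -0.18 to 0.10 in shMETTL14. Of the 11 subunits, 9 were below 0 in shMETTL3, beside 8756 of the 17686 genes tested. The subunits other than CNOT1 ran in shMETTL3 from -0.22 for CNOT4, the ubiquitin ligase of the complex (adjusted p = 0.0915), to 0.12 for the deadenylase CNOT6L. In shMETTL14 they ran from -0.19 for the deadenylase CNOT8 to 0.10 for CNOT6. The other module subunits CNOT2, CNOT3, CNOT9, CNOT10 and CNOT11 lay inside these ranges. With the shCTR-2 library left out, 4 of the 11 passed in shMETTL3, namely CNOT1 (-0.18, adjusted p = 0.0303), CNOT2 (-0.27, adjusted p = 0.0116), CNOT4 (-0.27, adjusted p = 0.0433) and CNOT7 (-0.22, adjusted p = 0.0433). With shCTR-1 left out instead, these values were 0.10 for CNOT1, 0.02 for CNOT2, -0.16 for CNOT4 and -0.18 for CNOT7, and none passed, so CNOT1 and CNOT2 changed sign with the control library used.

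CNOT10, which forms a module with CNOT11 on the same scaffold, was the only CCR4-NOT subunit called between the knockdowns. That was 1 of 11 lower (9.09%) and 0 higher, beside 5.49% and 6.65% of all genes. CNOT10 had 1770 and 1709 reads in shCTR, 1548 and 1569 in shMETTL3, and 1874 and 1725 in shMETTL14 libraries. The shMETTL3 libraries were the lowest and the other groups overlapped. The log2 fold change between the knockdowns was -0.22 (SE 0.0661, adjusted p = 0.0306). It missed the threshold with DESeq2 (-0.23, adjusted p = 0.0601), library size alone (-0.19, adjusted p = 0.0627) or no filter (-0.22, adjusted p = 0.0672), and when either library of shMETTL3 or shMETTL14 was left out (adjusted p from 0.0702 to 0.340). The deadenylase paralogs CNOT6 and CNOT6L had 13.0 ± 1.06 and 5.94 ± 0.285 CPM per kb of the longest transcript in shCTR cells, and CNOT7 and CNOT8 had 14.8 ± 0.274 and 23.0 ± 0.60. The second deadenylase, the catalytic PAN2 with its partner PAN3, was not called in any comparison, with log2 fold changes in shMETTL3 of -0.14 and -0.06 and in shMETTL14 of -0.19 and 0.04.

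**Figure D3:**
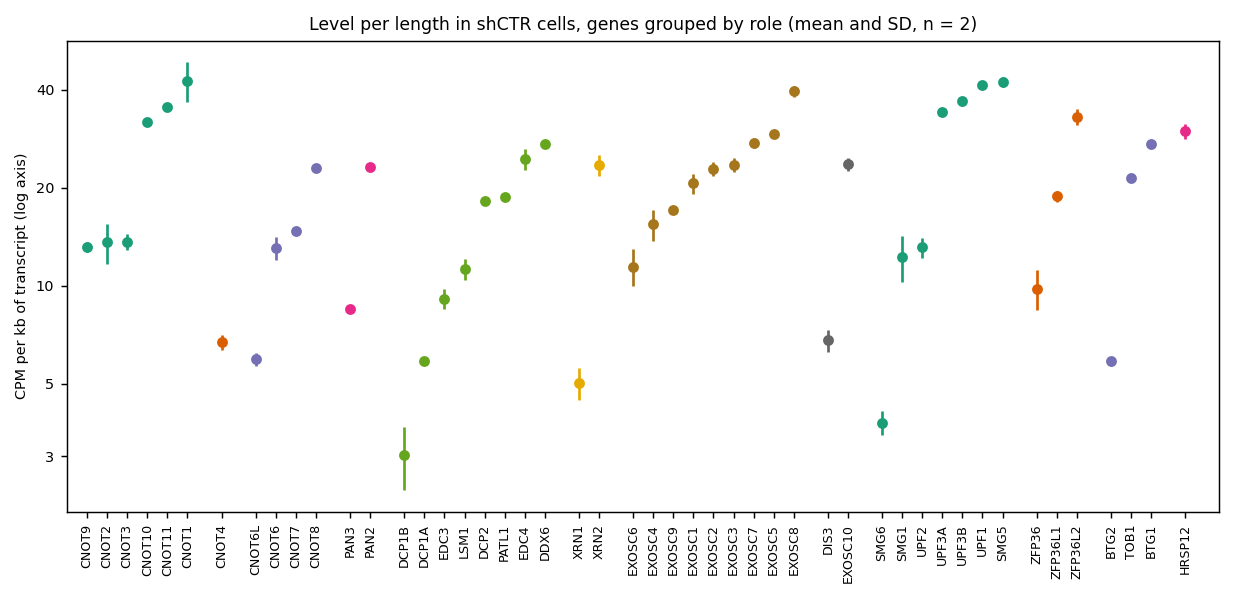
Level of each decay gene in shCTR cells in CPM per kb of its longest transcript on a log axis, as mean and SD of 2 libraries, grouped by role from CCR4-NOT on the left to HRSP12 on the right. Levels ran from 3.02 for DCP1B to 42.6 for CNOT1, with SMG5 and UPF1 next to the latter.

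HRSP12, the adaptor between YTHDF2 and RNase P/MRP, had 598 and 627 reads in shCTR, 583 and 589 in shMETTL3, and 505 and 541 in shMETTL14 libraries. The groups did not overlap, and shMETTL14 was the lowest. The log2 fold change was -0.09 in shMETTL3 (adjusted p = 0.500) and -0.24 in shMETTL14 (adjusted p = 0.105), so neither passed the threshold. The difference between the knockdowns was 0.15, with a 95% interval from -0.02 to 0.32.

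Of the 8 decapping members, PATL1 was lower in both knockdowns and the rest were not called. That was 12.5% in each, beside 7.73% of all genes lower in shMETTL3 and 3.26% in shMETTL14. Between the knockdowns 0 were called, beside 12.1% of all genes. At an unadjusted p under 0.05, DCP2 was lower (-0.19, adjusted p = 0.0549) and DCP1A higher (0.22, adjusted p = 0.0775) there, beside 25% of all genes. Both passed the threshold with the compared groups alone. PATL1, a scaffold that joins the LSM ring, DDX6 and the decapping enzyme, had 1541 and 1431 reads in shCTR, 1280 and 1246 in shMETTL3, and 1199 and 1254 in shMETTL14 libraries. All 4 knockdown libraries were below both shCTR libraries. The level was 76.4 ± 2.29 CPM in shCTR, 63.6 ± 2.17 in shMETTL3 and 62.5 ± 2.08 in shMETTL14, with log2 fold changes of -0.26 (SE 0.0675, adjusted p = 0.0110) and -0.29 (SE 0.0676, adjusted p = 0.0122). These calls held under all 8 other settings, but in shMETTL3 PATL1 missed the threshold without shMETTL3-1 (-0.30, adjusted p = 0.0501) or shMETTL3-2 (-0.23, adjusted p = 0.163), and in shMETTL14 without shMETTL14-1 (-0.26, adjusted p = 0.218) or shMETTL14-2 (-0.32, adjusted p = 0.0794). The catalytic subunit DCP2, its activators DCP1A and DCP1B, the enhancers EDC3 and EDC4, the ring subunit LSM1 and the helicase DDX6 ran from -0.16 (DCP2) to 0.10 (DCP1A) in shMETTL3. In shMETTL14 they ran from -0.13 (DDX6) to 0.34 (DCP1B, adjusted p = 0.259). DCP1B was the least counted member, with 109 to 179 reads, and its SE of 0.167 was the widest. Per kb, DCP1A stood at 5.89 ± 0.159 and DCP1B at 3.02 ± 0.665 CPM in shCTR cells.

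Of the 5′-to-3′ exonucleases, the nuclear XRN2 was lower in shMETTL3 and the cytoplasmic XRN1 was not called. XRN2, which also acts in transcription termination, had 1680 and 1464 reads in shCTR, 1325 and 1283 in shMETTL3, and 1570 and 1574 in shMETTL14 libraries. The shMETTL3 libraries were below all others, and those of shMETTL14 lay between the shCTR libraries. The log2 fold change was -0.30 in shMETTL3 (SE 0.0703, adjusted p = 0.00645) and -0.01 in shMETTL14, and the knockdowns differed by -0.29 (SE 0.0703, adjusted p = 0.00960). Without shMETTL3-2 the 2 calls became -0.26 (adjusted p = 0.118) and -0.24 (adjusted p = 0.163), and without shMETTL14-1 or shMETTL14-2 the difference between the knockdowns became -0.29 (adjusted p = 0.0904) and -0.28 (adjusted p = 0.0985). XRN1 had values of -0.04 in shMETTL3 and -0.08 in shMETTL14.

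Among the 11 exosome members, DIS3 was lower in shMETTL3 and the core subunits EXOSC2 and EXOSC8 were lower in shMETTL14. The shares were 9.09% and 18.2%, beside 7.73% and 3.26% of all genes lower. Between the knockdowns, 1 was higher and 1 lower (9.09% each), beside 6.65% and 5.49% of all genes. DIS3, the catalytic nuclease of the complex, had 1503 and 1303 reads in shCTR, 1204 and 1107 in shMETTL3, and 1205 and 1276 in shMETTL14 libraries. All 4 knockdown libraries were below both shCTR libraries, with a log2 fold change of -0.31 in shMETTL3 (SE 0.0758, adjusted p = 0.00850) and -0.19 in shMETTL14 (adjusted p = 0.151). The DIS3 call in shMETTL3 was lost without shCTR-1 (-0.23, adjusted p = 0.0644) or shMETTL3-2 (-0.23, adjusted p = 0.181), and without shCTR-2 DIS3 also passed in shMETTL14 (-0.27, adjusted p = 0.0300), where without shCTR-1 it was at -0.11 (adjusted p = 0.507). DIS3 shares exon positions with BORA and PIBF1 on the opposite strand.

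EXOSC2, a cap subunit that contacts RNA, had 1205 and 1256 reads in shCTR, 1267 and 1283 in shMETTL3, and 1046 and 1068 in shMETTL14 libraries. The shMETTL14 libraries were below all others. The log2 fold change was -0.23 in shMETTL14 (SE 0.0690, adjusted p = 0.0482) and 0.02 in shMETTL3, and shMETTL3 was higher than shMETTL14 by 0.25 (SE 0.0688, adjusted p = 0.0185). EXOSC8, a subunit of the ring, had 1950 and 1784 reads in shCTR, 1780 and 1753 in shMETTL3, and 1605 and 1589 in shMETTL14 libraries. The shMETTL14 libraries were again the lowest, with a log2 fold change of -0.24 (SE 0.0651, adjusted p = 0.0318). EXOSC6, also of the ring, had 1060 and 1234 reads in shCTR, 1070 and 1195 in shMETTL3, and 1329 and 1385 in shMETTL14 libraries. It differed between the knockdowns by -0.28 (SE 0.0814, adjusted p = 0.0289), with shMETTL14 above both other groups and a log2 fold change of 0.23 against shCTR (adjusted p = 0.103). EXOSC2 and EXOSC8 in shMETTL14 each held in 1 of the 6 fits that left out a library, EXOSC2 at -0.29 to -0.18 and EXOSC8 at -0.28 to -0.20. Both were also lost with library size alone, with no filter and with the compared groups alone, and EXOSC2 with DESeq2 (-0.24, adjusted p = 0.124). The differences between the knockdowns were lost without any library of shMETTL3 or shMETTL14, at 0.24 to 0.27 for EXOSC2 and -0.34 to -0.21 for EXOSC6. With DESeq2 they also missed the threshold, EXOSC2 at an adjusted p of 0.0643 and EXOSC6 at 0.0730, and EXOSC6 did so with library size alone (0.0520) and with no filter (0.0730). Without shCTR-2 the EXOSC6 value against shCTR was 0.36 (adjusted p = 0.00496), and without shCTR-1 it was 0.10 (adjusted p = 0.523). The remaining core subunits EXOSC1, EXOSC3, EXOSC4, EXOSC5, EXOSC7 and EXOSC9 and the nuclear nuclease EXOSC10 were not called in any comparison. In shMETTL3 all uncalled exosome members ran from -0.13 (EXOSC7) to 0.09 (EXOSC4).

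**Figure D4:**
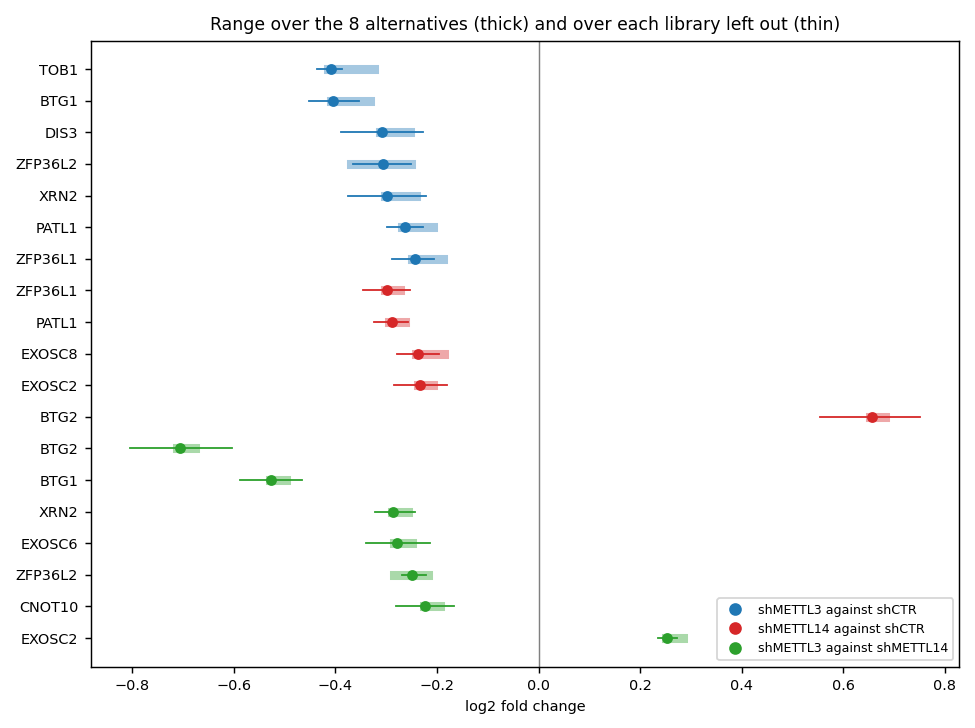
Log2 fold change of the 19 called values, with points for the value reported, thick bars for the range over 8 other settings and thin bars for the range with each library left out, colored by comparison. No bar crosses 0, and BTG2 and BTG1 lie furthest from it.

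Nonsense-mediated decay, which removes mRNAs with premature stop codons, was called in 0 of 7 members in each comparison by edgeR and by DESeq2. Of all genes tested, edgeR called 16.5% in shMETTL3, 6.69% in shMETTL14 and 12.1% between the knockdowns. At an unadjusted p under 0.05, 2 members were lower and 0 higher in shMETTL3 against shCTR and 0 differed in shMETTL14. The shares of all genes in either direction were 29.9% and 20.7%. Between the knockdowns, 1 was higher (UPF1, 0.16, adjusted p = 0.0731) and 1 lower (SMG1, -0.21, adjusted p = 0.103), beside 25% of all genes. Both passed the threshold with the compared groups alone. The helicase UPF1 was at 0.10 in shMETTL3 and its partner UPF3B at -0.21 (adjusted p = 0.0505), just outside the threshold. SMG1, the kinase that phosphorylates UPF1, had 4344 and 3350 reads in shCTR, 3423 and 3380 in shMETTL3, and 3874 and 3883 in shMETTL14 libraries. The shCTR-1 library stood above all others, and shCTR-2 was at 175 CPM beside 174 and 168 CPM in the shMETTL3 libraries. The value of SMG1 was -0.20 in shMETTL3 (adjusted p = 0.0852) and, without shCTR-2, -0.36 (adjusted p = 0.000327), but without shCTR-1 it was -0.03 (adjusted p = 0.784). SMG1 has near-identical pseudogene copies, so its count is uncertain. UPF2, UPF3A, SMG5 and the endonuclease SMG6 were within these values in shMETTL3, and in shMETTL14 the 7 genes ran from -0.13 (UPF3B) to 0.10 (UPF3A). Per kb, UPF3A and UPF3B were at 34.3 ± 0.123 and 36.8 ± 1.27 CPM in shCTR cells.

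Outside the 6 ZFP36 and BTG/TOB adaptors, 3 of 42 members (7.14%) were called lower in each knockdown, beside 7.73% of all genes in shMETTL3 and 3.26% in shMETTL14. The 6 adaptors held the other 4 lower calls in shMETTL3 (66.7%). In shMETTL14 they held 1 lower and 1 higher call (16.7% each), beside 3.26% and 3.43% of all genes. The list of 90 other decay factors was treated in the same way. In shMETTL3, 2 were higher and 12 lower (2.22% and 13.3%), beside 8.73% and 7.73% of all genes, and DESeq2 called 2 and 9. In shMETTL14, 0 were higher and 3 lower (3.33%), beside 3.43% and 3.26% of all genes, and DESeq2 gave the same 0 and 3. At an unadjusted p under 0.05, edgeR had 5 higher and 14 lower there, beside 10.7% and 9.97% of all genes. The largest rises in shMETTL3 were SAMD4A, which binds stem-loops and recruits CCR4-NOT, at 0.72, and the phosphodiesterase PDE12 at 0.33. The largest falls were TTC37, a scaffold of the SKI complex that feeds mRNA to the exosome, at -0.39, the RNase P/MRP subunit POP1 at -0.35 and the nonsense-mediated decay factor NBAS at -0.30. In shMETTL14 the 3 falls were LSM2, a subunit of the decapping ring, at -0.30, the ribosome rescue factor HBS1L at -0.30 and CASC3 of the exon junction complex at -0.22. Of the m6A readers and RNase P/MRP subunits, 1 of 13 (POP1, 7.69%) was called lower in shMETTL3, beside 7.73% of all genes. In shMETTL14, 0 were called, and 4 were at an unadjusted p under 0.05 by edgeR, beside 20.7% of all genes. DESeq2 called 0 in either knockdown. In these bulk libraries, fewer cells of a type and less RNA per cell cannot be told apart.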

How the data were processed

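RNA-seq counts of 6 K562 libraries were analysed, with groups and replicate numbers taken from the labels. Poly(A) RNA was captured by the authors on oligo(dT) beads and cDNA synthesis used random primers. The deposited table holds raw counts, the reads assigned to each gene, with no normalization. Per the submitters' processing notes HTSeq 0.6.1 and hg38 were used. The aligner, the annotation and whether strand was used in counting are not given in the sources used here, so antisense and overlapping genes (26 members have an exon overlapping another gene, 7 of them on the same strand) cannot be separated. No molecular identifiers were used, so counts include PCR copies.

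In R 4.3.3, edgeR 4.0.16 kept 17686 genes (filterByExpr, minimum count 10), scaled by TMM and fitted all 3 groups at once. The quasi-likelihood test was adjusted by Benjamini-Hochberg with a threshold of 0.05, and was tried on simulated counts. Those had equal spread in all groups and larger changes than any member, so they do not cover the changes reported here. Since 2 libraries a group gave few degrees of freedom, spread was shared between groups. With a library left out, the lone library was assumed to vary like the others. As the shCTR libraries stood further apart, a shared spread can make p-values too small against shCTR and too large between the knockdowns. Alternatives were DESeq2 1.42.0, DESeq2 size factors, library size alone, no filter, the compared groups alone, a replicate block, a correction for GC content and length (mgcv 1.9.3) without and with the block, and each library left out. Symbols matched 41209 identifiers in a gene name table and 15846 in GENCODE release 29. HRSP12 matched by its older symbol (now RIDA).

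Members and lists were chosen with earlier results of these data known. All members were named by role, with values in every library for those called in any comparison, HRSP12, CNOT1 and the shRNA targets. Of the 90 other decay factors, those called that changed most, up to 3 each way per knockdown and with at least 10 counts in every library were named.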

Additional observations from a re-analysis of the deposited data

Results flagged for a closer look

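Between the knockdowns, 7 of the 48 decay genes (14.6%), beside 12.1% of all genes, differed by edgeR's quasi-likelihood test of shMETTL3 against shMETTL14, a direct test of whether the 2 effects against the same control were unequal. DESeq2 called 4 of them, and 2 or 3 were called when a library of shMETTL3 or shMETTL14 was left out. On the log2 scale the differences were -0.71 for BTG2, -0.53 for BTG1, -0.29 for XRN2, -0.28 for EXOSC6, -0.25 for ZFP36L2, -0.22 for CNOT10 and 0.25 for EXOSC2. BTG2 and EXOSC6 had their higher level in shMETTL14, where BTG2 alone was called above shCTR. BTG1, XRN2 and ZFP36L2 had their lower level in shMETTL3, where each was called below shCTR. EXOSC2 was called below shCTR in shMETTL14, and CNOT10 was called against shCTR in neither line.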

How the results depend on the processing

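No called member changed direction under any alternative. The number of members called in shMETTL3 against shCTR was 7, and it was 11 with the replicate block, 12 with the GC and length correction and the replicate block together, and 2 to 13 with a library left out, lowest without shMETTL3-2 and highest without shCTR-2. In shMETTL14 against shCTR it was 5, and 3 with library size alone, with no filter and with the compared groups alone, 12 with the correction and the replicate block, and 1 to 8 with a library left out, where BTG2 was the 1 without either shMETTL14 library. Between the knockdowns it was 7, and 4 with DESeq2, 11 with the compared groups alone, 12 with the correction, 13 with the correction and the replicate block, and 2 to 11 with a library left out. Library size alone moved the split there from 1 higher and 6 lower to 3 higher and 4 lower. Of the other decay factors, 14 were called in shMETTL3, and 9 with library size alone (4 higher and 5 lower, against 2 and 12), 24 with the correction and the replicate block, and 3 to 22 with a library left out. In shMETTL14, 3 were called, and 7 with the replicate block, 9 with the correction, 17 with both, and 0 to 11 with a library left out. Between the knockdowns 6 were called, and 3 with DESeq2, 10 with the correction, 13 with the correction and the replicate block, and 2 to 8 with a library left out. Shares of all genes called under the same settings are not given beside these counts. The counts alone therefore do not show a change particular to the decay genes. The causes were not tested. Of the 19 called member values, 13 stayed past the threshold in all 8 alternatives and 5 also with every library left out. Whether equal replicate numbers mark paired samples was not settled. Deviations of same-numbered libraries correlated at 0.061, 0.0051 and -0.020 over all genes tested, and noise within genes could hide a small shared effect. The block is reported only here. With 2 libraries a group, members under 500 reads were the least precise, as the SE of 0.167 for DCP1B shows.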
